A study of Mus musculus with 16 samples.

Results

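Skeletal muscle takes up glucose through facilitative transporters, phosphorylates it inside the fibre and adjusts both steps to insulin and contraction. The 10 genes described here were chosen by name for these steps: 4 transporters (*Slc2a4*, *Slc2a1*, *Slc2a3* and *Slc2a12*), the hexokinase gene *Hk2*, *Tbc1d1* and *Tbc1d4*, which encode the Rab GTPase-activating proteins that hold transporter vesicles inside the cell, *Txnip*, and *Insr* and *Irs1*, at the head of insulin signalling. They are 10 of the 24454 genes counted, and all 10 were among the 15487 genes with enough counts to be tested. RNA was sequenced from *gastrocnemius* muscle of 16 mice, 1 library per mouse. HSALR mice are a model of myotonic dystrophy type 1 and carry a human skeletal actin transgene with an expanded CTG repeat, so that the repeat RNA is made in skeletal muscle. FVB mice, the background strain without the transgene, were the controls. At 3 months of age HSALR mice received vehicle (n = 5) or AICAR (n = 5), and FVB mice received vehicle (n = 3) or AICAR (n = 3), with AICAR at 500 mg/kg over 7 days.

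AICAR enters cells and is turned into an analogue of AMP that activates AMP-activated protein kinase (AMPK), the energy sensor of the fibre. In resting muscle the transporter GLUT4, the product of *Slc2a4*, is mostly kept in vesicles, and insulin through AKT, or contraction through AMPK, moves it to the surface by phosphorylating TBC1D4 and TBC1D1. Hexokinase 2 then traps the sugar as glucose 6-phosphate, while TXNIP, an alpha-arrestin, binds transporters and promotes their internalization.

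The libraries held 64890014 to 81987726 counted reads. Normalized CPM, the unit of all levels, is the count of a gene scaled to a library total that is the same for all mice after TMM normalization. Log2 fold changes are those fitted by edgeR's quasi-likelihood test over all 16 libraries, with their standard error (SE), and a gene was called where the p-value adjusted over the 15487 genes was under 0.05. Markers of the muscle fibre were high throughout, with a summed level of 7 genes between 97400 and 139800 normalized CPM. Epidermal marker RNA stood out in 6 libraries, in which *Krt14* was above 1 normalized CPM: 4 of the 5 vehicle-treated HSALR mice (all but replicate S451), 1 of the 3 vehicle-treated FVB mice (S450), 1 of the 3 AICAR-treated FVB mice (S448) and 0 of the 5 AICAR-treated HSALR mice. S450 was also apart in *Myh7*, the slow fibre myosin, with 4812 normalized CPM against 1506 and 1647 in the other vehicle-treated FVB mice. The 5 endothelial markers were all lower in vehicle-treated HSALR than in FVB mice, with sums of 192 to 238 against 284 to 324 normalized CPM. The part of these differences in the results was not tested. In muscle homogenate, fewer cells of a type and less RNA per cell cannot be told apart.

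Of the 10 genes, *Hk2* and *Tbc1d1* rose with AICAR in both genotypes, and *Tbc1d4* was lower in HSALR than in FVB muscle under both treatments. After vehicle, 3 of the 10 differed between HSALR and FVB muscle, 1 higher (*Tbc1d1*) and 2 lower (*Slc2a3*, *Tbc1d4*), against 26.9% of all genes tested, 15.4% higher and 11.5% lower. After AICAR, 2 of the 10 differed between the genotypes, *Slc2a12* higher and *Tbc1d4* lower, against 21.8% of all genes, 12.2% higher and 9.64% lower. AICAR changed 3 of the 10 in FVB muscle, raising *Hk2* and *Tbc1d1* and lowering *Slc2a3*, where 13.2% of all genes were called, 8.40% higher and 4.77% lower. In HSALR muscle it changed 6 of the 10, raising *Hk2*, *Txnip*, *Tbc1d1* and *Slc2a4* and lowering *Slc2a1* and *Irs1*, where 26.6% of all genes were called, 13.7% higher and 13.0% lower. The groups of FVB mice are the smaller, so these counts do not compare the responses of the genotypes. In the test of that difference, 0 of the 10 genes were called with edgeR or limma-voom and 1, *Slc2a12*, with DESeq2, while 4 had an unadjusted p under 0.05 in edgeR. Of all genes 0.691% were called in that test, 0.207% with a higher and 0.484% with a lower effect of AICAR in HSALR muscle. Without the 6 libraries with *Krt14*, which leaves 1 vehicle-treated HSALR mouse that is assumed to vary like the others, the counts of called genes among the 10 were 1 and 2 for the genotypes after vehicle and after AICAR, and 2 and 2 for AICAR in FVB and in HSALR muscle. Over all genes the calls in these comparisons went from 4169, 3379, 2039 and 4121 with all mice to 904, 2410, 697 and 899 without those libraries.

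**Figure D1:**
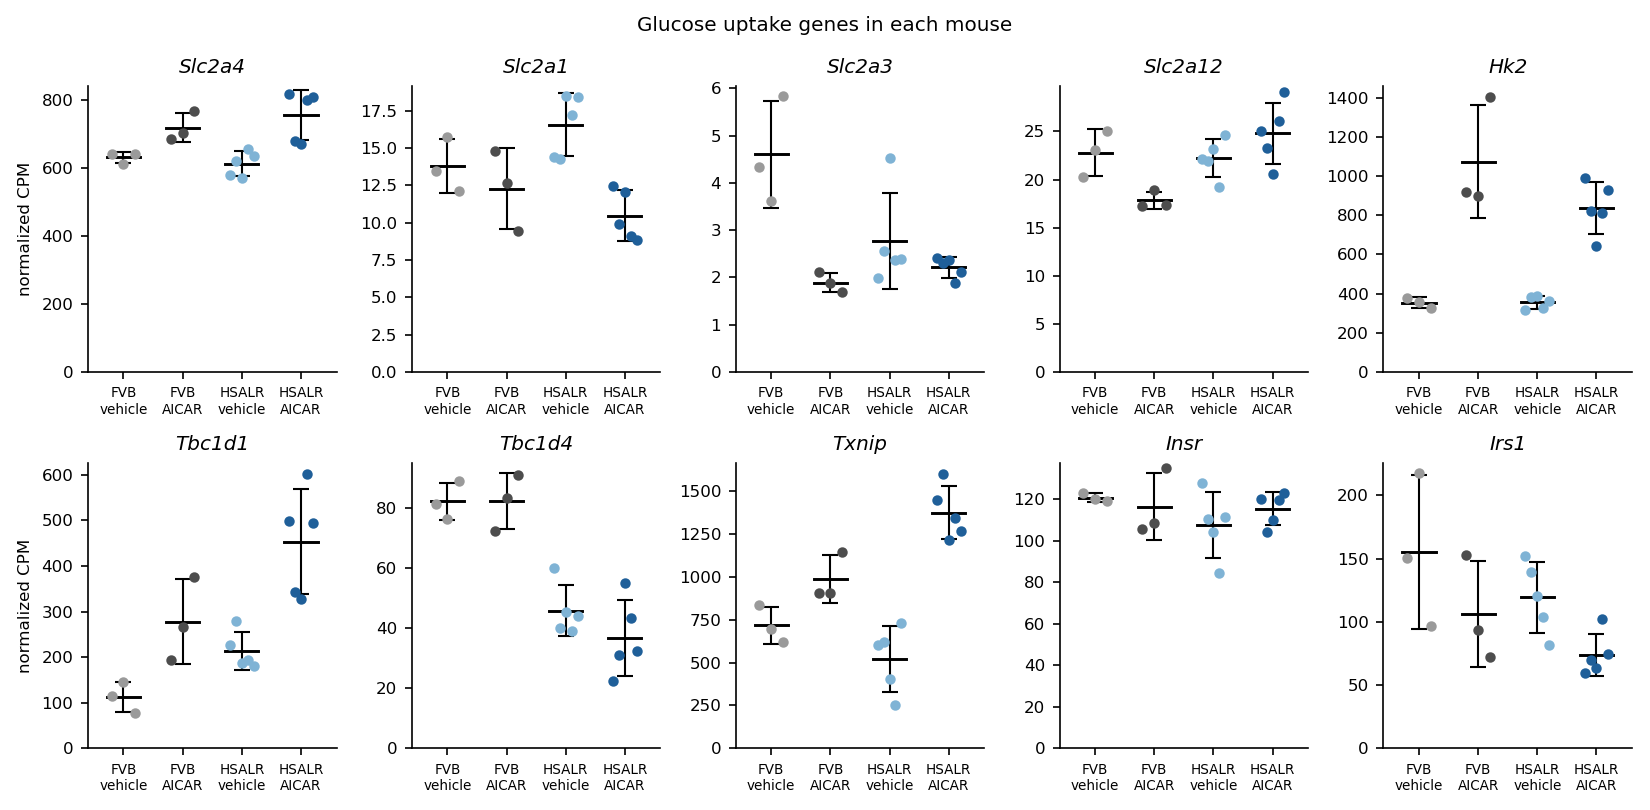
Normalized CPM (y axis, from 0) of the 10 genes in each of the 16 mice (points) by group (x axis), with the group mean (line) and SD (bars), n = 3 for FVB and n = 5 for HSALR groups. *Hk2* was at 642 or more in every AICAR-treated mouse and at 389 or less in every vehicle-treated mouse, and *Tbc1d4* was lower in every HSALR mouse than in every FVB mouse.

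**Figure D2:**
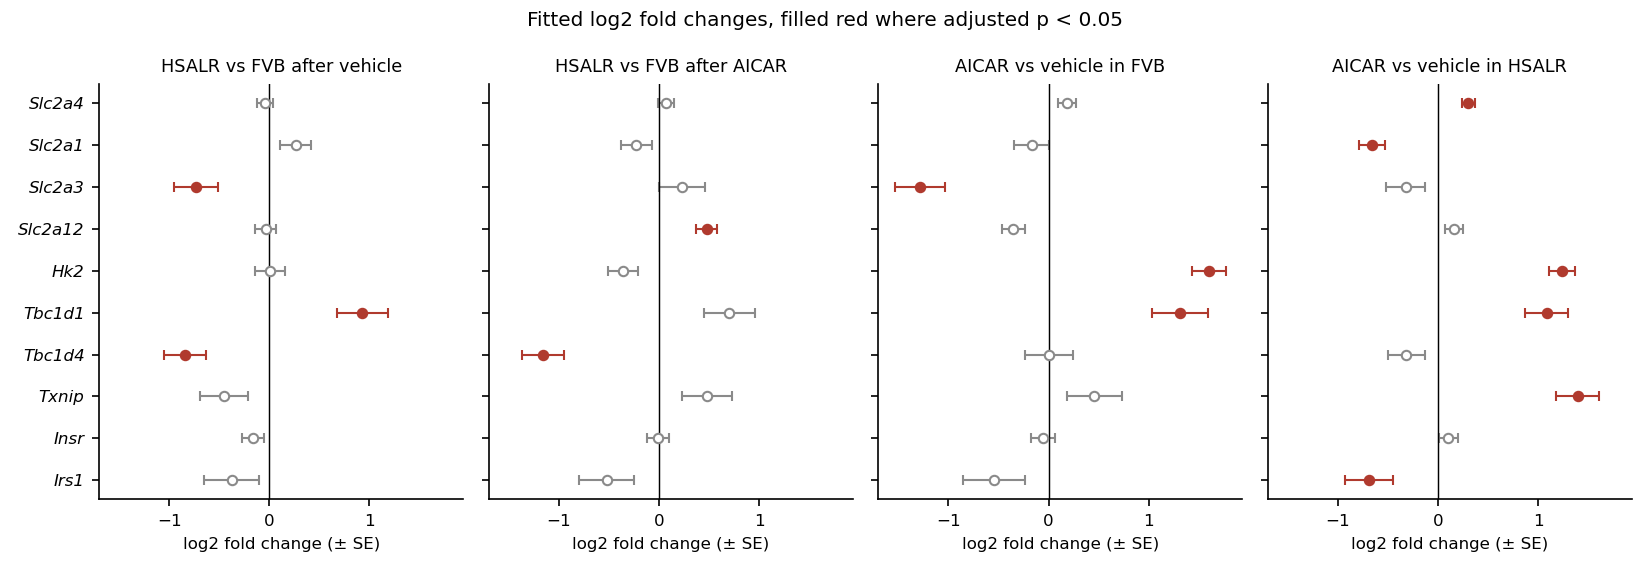
Fitted log2 fold change (x axis) of each gene (y axis) in 4 comparisons, with the standard error as bars. Filled red points passed an adjusted p of 0.05 over all genes tested (3, 2, 3 and 6 of the 10 genes from left to right) and open grey points did not.

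GLUT4 is the main transporter of adult muscle fibres, and *Slc2a4* (Entrez gene 20528, minus strand of chromosome 11 of GRCm38, 69942286 to 69948216) held 93.3% to 96.9% of the level of the 4 transporters per kb of counted length in every mouse. It had 639.9, 613 and 642 normalized CPM in vehicle-treated FVB mice and 685, 703.5 and 767 in AICAR-treated FVB mice. In HSALR mice it had 579, 619, 569, 656 and 635 after vehicle and 816, 678, 672, 799 and 809 after AICAR. Every AICAR-treated mouse of either genotype was above every vehicle-treated mouse. The increase was called in HSALR muscle, at 1.23-fold (log2 fold change 0.30, SE 0.07, adjusted p = 0.0039), and not in FVB muscle (log2 0.19, SE 0.09, adjusted p = 0.17). In HSALR muscle it was 0.38 with adjusted p = 0.13 without the 6 libraries with *Krt14*. By group means the order was HSALR vehicle (612 ± 36.7, SD, n = 5), FVB vehicle (632 ± 16.3, n = 3), FVB AICAR (718 ± 43.0, n = 3) and HSALR AICAR (755 ± 73.4, n = 5). The genotypes overlapped within each treatment, with adjusted p = 0.70 after vehicle and 0.54 after AICAR.

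*Slc2a1* (chromosome 4, 119108745 to 119137330, plus strand), which encodes GLUT1, the transporter of basal uptake, fell after AICAR in HSALR muscle (log2 -0.66, SE 0.13, adjusted p = 0.0023). The vehicle-treated HSALR mice had 14.4, 14.2, 18.5, 17.2 and 18.4 normalized CPM and the AICAR-treated ones 12.5, 9.93, 12.1, 9.07 and 8.81. These groups did not overlap. *Gm12868* shares exon bases with *Slc2a1* on the other strand, and its own level was not analysed here. In FVB mice the levels were 13.5, 15.7 and 12.1 after vehicle and 14.8, 12.6 and 9.41 after AICAR, and those groups overlapped (log2 -0.17, SE 0.17, adjusted p = 0.57). Endothelial cells, keratinocytes and red cell precursors also express GLUT1. The summed epidermal markers were 0.612 to 187 in vehicle-treated and 0.242 to 0.371 in AICAR-treated HSALR mice. The vehicle-treated mouse at 0.612, S451, had 14.4 normalized CPM of *Slc2a1*, above all 5 AICAR-treated mice. The 5 endothelial markers summed to 192 to 238 after vehicle and 226 to 241 after AICAR, and the 3 markers of red cells to 162 to 1665 and 282 to 613; their part in the result was not tested. Without the 6 libraries with *Krt14* the log2 fold change of *Slc2a1* was -0.46 with adjusted p = 0.30.

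The other transporters were close to *Slc2a1* or below it. Per kb, *Slc2a1* took 1.15% to 3.33% of the 4 transporters, *Slc2a12* 1.65% to 2.85% and *Slc2a3* 0.152% to 0.614%. *Slc2a3* (chromosome 6, 122727809 to 122802363, minus strand) encodes GLUT3, the high-affinity transporter of neurons that leukocytes also use, and only 118 to 430 reads per library were counted on it. It had 4.34, 3.62 and 5.84 normalized CPM in vehicle-treated FVB mice and 2.11, 1.87 and 1.69 after AICAR. The groups did not overlap, and the decrease was called (log2 -1.28, SE 0.25, adjusted p = 0.0043). The 3 markers of red cells went the same way without overlap, with sums of 718 to 1829 after vehicle and 304 to 515 after AICAR, though none of them was called, and their part in the result was not tested. In vehicle-treated HSALR mice *Slc2a3* was at 1.99, 2.56, 4.54, 2.38 and 2.40, lower on average than in FVB mice with an overlap in the mouse at 4.54, S453 (log2 -0.73, SE 0.22, adjusted p = 0.021). That call was lost without S450, the FVB mouse at 5.84 with epidermal marker RNA and high *Myh7* (log2 -0.52, adjusted p = 0.13), and with only these 2 groups fitted (adjusted p = 0.078). Without all 6 libraries with *Krt14*, S450 among them, the log2 fold change was -1.0045. That fit keeps 1 vehicle-treated HSALR mouse, S451, which had the lowest *Slc2a3* of its group, so it cannot decide whether the call holds. After AICAR the HSALR mice had 2.40, 2.30, 2.38, 1.88 and 2.11, which overlapped their vehicle group (log2 -0.32, SE 0.19, adjusted p = 0.25). The 5 leukocyte markers summed to 108 to 149 in vehicle-treated FVB and 128 to 173 in vehicle-treated HSALR mice. The difference between the AICAR effects of the genotypes was 0.96 (SE 0.32, adjusted p = 0.18), and it was called only without HSALR replicate S453 (1.21, adjusted p = 0.046).

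*Slc2a12* (chromosome 10, 22644990 to 22703880, plus strand) encodes GLUT12, a further transporter found in muscle. Its levels were 20.3, 23.1 and 25.1 normalized CPM in vehicle-treated FVB mice and 17.3, 18.9 and 17.4 after AICAR. In HSALR mice they were 22.2, 21.9, 23.2, 19.2 and 24.6 after vehicle and 25.1, 23.3, 20.6, 26.1 and 29.1 after AICAR. All 5 HSALR mice were above the 3 FVB mice after AICAR, and that difference was called (log2 0.48, SE 0.10, adjusted p = 0.0047). The difference between AICAR and vehicle in FVB muscle did not pass the test (log2 -0.35, SE 0.12, adjusted p = 0.054), nor did the difference between the AICAR effects (0.51, SE 0.15, adjusted p = 0.12). The first passed with 4 of the other settings and with any one of S445, S458, S460 or S463 left out (adjusted p 0.030 to 0.046), and the second with DESeq2 (0.042) and without S460 (0.034). An exon of *Tbpl1* overlaps *Slc2a12* on the other strand. *Tbpl1* was between 15.4 and 20.2 normalized CPM and differed by log2 0.04 between the genotypes after AICAR (adjusted p = 0.69).

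**Figure D3:**
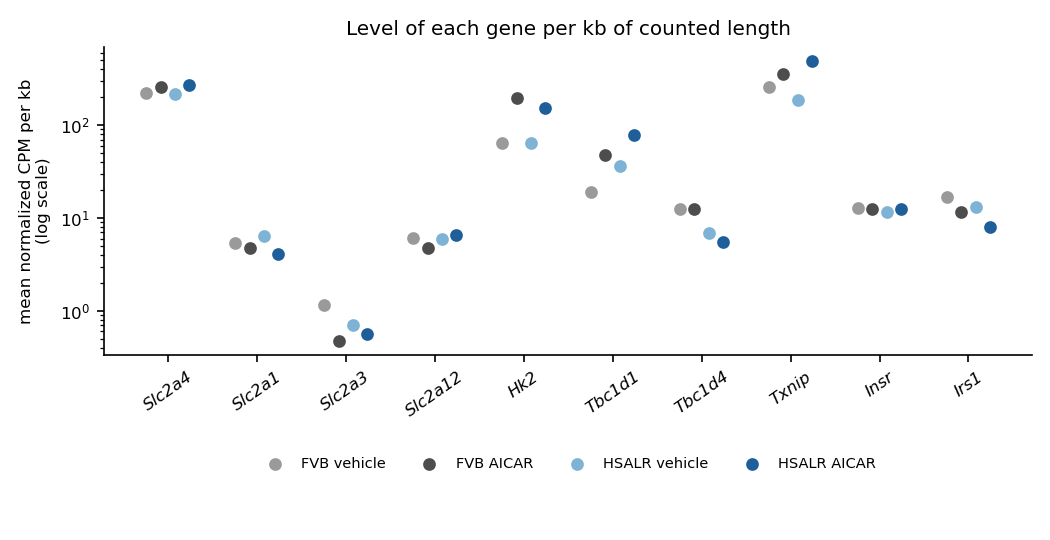
Group means of normalized CPM per kb of counted length (y axis, log scale) for the 10 genes (x axis), 1 point per group. *Slc2a4*, at 217 to 267, stood above the other 3 transporters, at 0.477 to 6.60.

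*Hk2* (chromosome 6, 82725025 to 82774454, minus strand) had the largest fitted increase with AICAR of the 10 genes in FVB muscle. Its product is the insulin-regulated hexokinase of muscle. Vehicle-treated FVB mice had 378, 357 and 326 normalized CPM and AICAR-treated ones 917, 901 and 1406. Vehicle-treated HSALR mice had 315, 382, 389, 324 and 364, and AICAR-treated ones 988, 822, 642, 811 and 930. No AICAR-treated mouse overlapped a vehicle-treated mouse. The increase was 3.04-fold in FVB muscle (log2 1.60, SE 0.17, adjusted p = 5.5e-05) and 2.37-fold in HSALR muscle (log2 1.24, SE 0.13, adjusted p = 1.2e-05). The effect in HSALR minus that in FVB muscle was -0.36 on the log2 scale (SE 0.21, adjusted p = 0.44). With vehicle the genotypes had nearly the same mean, 354 ± 26.1 (SD, n = 3) and 354.5 ± 33.6 (n = 5), and after AICAR 1075 ± 287 in FVB and 839 ± 133 in HSALR muscle, which overlapped (adjusted p = 0.095). Over leave-one-out fits the log2 increase stayed between 1.36 and 1.71 in FVB and between 1.18 and 1.33 in HSALR muscle.

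The paralogues *Tbc1d1* and *Tbc1d4* (the latter also known as AS160) differed in pattern. *Tbc1d1* (chromosome 5, 64156305 to 64351486, plus strand), the form most phosphorylated by AMPK, was at 114, 145 and 77.9 normalized CPM in vehicle-treated FVB mice and 193, 266 and 376 after AICAR. In HSALR mice it was at 227, 279, 186, 194 and 181 after vehicle and 499, 343, 328.5, 601 and 494 after AICAR. AICAR raised it without overlap in FVB (2.48-fold, log2 1.31, SE 0.28, adjusted p = 0.0066) and in HSALR muscle (2.12-fold, log2 1.09, SE 0.22, adjusted p = 0.0019), and the effect in HSALR minus that in FVB muscle was -0.23 (SE 0.35, adjusted p = 0.81). All 5 vehicle-treated HSALR mice were above the 3 vehicle-treated FVB mice (1.90-fold, log2 0.93, SE 0.25, adjusted p = 0.014). The lowest of the FVB mice was S450, the library with high *Myh7*. Without it the log2 fold change was 0.72 with adjusted p = 0.073. Without the 6 libraries with *Krt14* the log2 fold change was 0.81 (adjusted p = 0.32) between the genotypes after vehicle, 1.13 (0.096) with AICAR in FVB and 1.00 (0.18) with AICAR in HSALR muscle. After AICAR the difference between the genotypes was 0.70 (SE 0.25) with adjusted p = 0.057, and it passed with S449, S450, S455 or S460 left out (0.026 to 0.046) and with DESeq2 (0.021).

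*Tbc1d4* (chromosome 14, 101442360 to 101609281, minus strand), the form phosphorylated by AKT after insulin, was at 81.6, 76.5 and 89.0 normalized CPM in vehicle-treated and at 72.6, 83.7 and 91.2 in AICAR-treated FVB mice. In HSALR mice it was at 60.3, 40.3, 45.6, 39.2 and 44.2 after vehicle and at 22.4, 31.1, 55.0, 43.5 and 32.4 after AICAR. Every HSALR mouse was below every FVB mouse. The difference was called after vehicle (log2 -0.84, SE 0.21, adjusted p = 0.0081) and after AICAR (log2 -1.16, SE 0.21, adjusted p = 0.0013), and each call was kept with any 1 mouse left out. Without the 6 libraries with *Krt14* it was -0.40 after vehicle, with adjusted p = 0.65. AICAR was not followed by a called change in FVB (log2 0.00, SE 0.24, adjusted p = 1.0) or HSALR muscle (log2 -0.32, SE 0.19, adjusted p = 0.23), the latter being called without S460, the HSALR mouse at 55.0 (log2 -0.50, adjusted p = 0.032). Of the 7 fibre markers 4 differed between the genotypes after vehicle and 4 after AICAR, 3 higher and 1 lower each time, where 26.9% and 21.8% of all genes were called. After vehicle *Myh1* (log2 1.52), *Mb* (0.79) and *Acta1* (0.31) were higher in HSALR muscle and *Myh7* (-1.37) was lower. *Myh7* was not called without S450 (-0.62, adjusted p = 0.17). *Acta1*, *Mb* and *Myh7* lost their calls after vehicle without the 6 libraries with *Krt14* (log2 0.26, 0.99 and -0.83), which leaves 1 vehicle-treated HSALR mouse. After AICAR *Myh1* (1.499), *Mb* (1.18) and *Acta1* (0.46) were again higher and *Myh4* (-0.67) was lower. *Myh4* was not called without S449 (-0.40, adjusted p = 0.13). *Acta1* is the mouse gene of the skeletal actin that the transgene carries in human form. Whether transgene reads were counted in it was not tested. With AICAR 0 of the 7 were called in either genotype by edgeR, DESeq2 or limma-voom, and 0 had an unadjusted p under 0.05. EdgeR called 13.2% of all genes in FVB and 26.6% in HSALR muscle. The part of the 7 fibre markers in the difference of *Tbc1d4* between the genotypes was not tested.

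The ratio of *Tbc1d1* to *Tbc1d4* per kb, chosen for description after the values had been seen, was 1.59, 2.15 and 0.996 in vehicle-treated FVB mice and 3.02, 3.61 and 4.69 after AICAR. In HSALR mice it was 4.28, 7.88, 4.65, 5.62 and 4.66 after vehicle and 25.3, 12.6, 6.80, 15.7 and 17.4 after AICAR. Group means ran from 1.58 ± 0.578 (SD, n = 3) in vehicle-treated FVB to 15.6 ± 6.78 (n = 5) in AICAR-treated HSALR muscle. The HSALR mouse at 6.80 after AICAR was S460, which lay within the range of the vehicle group.

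**Figure D4:**
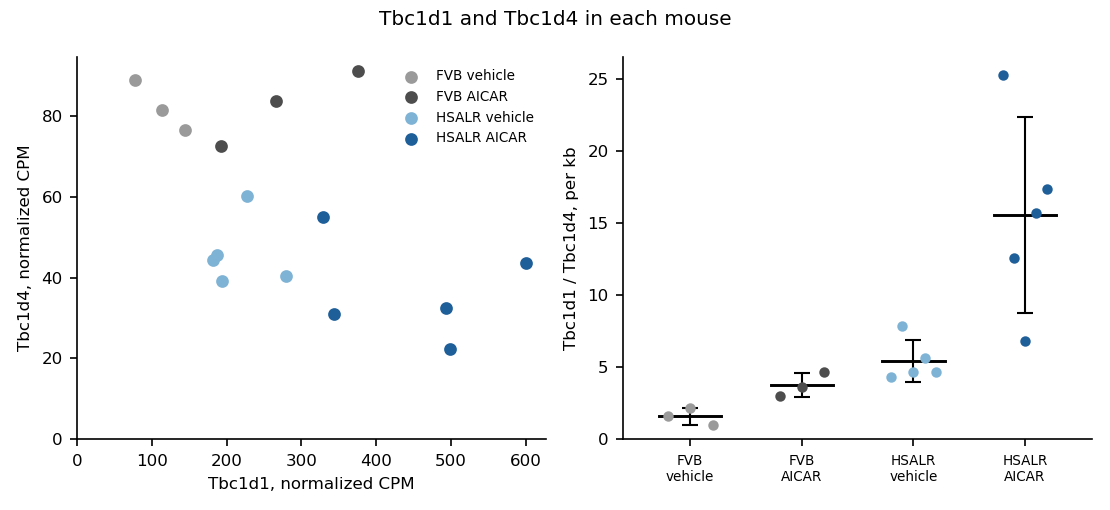
Left, *Tbc1d4* against *Tbc1d1* in normalized CPM, 1 point per mouse, coloured by group. Right, the ratio of *Tbc1d1* to *Tbc1d4* per kb in each mouse with the group mean and SD, which rises from 1.58 in FVB vehicle over 3.78 and 5.42 to 15.6 in HSALR AICAR.

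*Txnip* (chromosome 3, 96557957 to 96561857, plus strand) rose 2.63-fold after AICAR in HSALR muscle (log2 1.396, SE 0.21, adjusted p = 3e-04). Its transcription is known to follow the level of glucose 6-phosphate through the factors MondoA (gene *Mlxip*) and ChREBP (gene *Mlxipl*) with their partner MLX. The vehicle-treated HSALR mice had 602, 619, 407, 252 and 732 normalized CPM and the AICAR-treated ones 1447, 1600, 1215, 1344 and 1265. The groups did not overlap, and the call was kept without the 6 libraries with *Krt14*. In FVB mice *Txnip* was at 834, 694.5 and 622 after vehicle and 903.5, 906 and 1148 after AICAR, without overlap, yet the difference was not called (log2 0.46, SE 0.27, adjusted p = 0.29). The effects of the genotypes differed by 0.94 (SE 0.34, unadjusted p = 0.016, adjusted p = 0.22). After AICAR *Txnip* was 0.48 higher on the log2 scale in HSALR than in FVB muscle without passing the test (SE 0.25, adjusted p = 0.18), and it passed with only those groups fitted (0.018) and without S458 (0.045). The antisense gene *Gm15441* shares exon bases with *Txnip*. It was at 0.207 to 0.953 normalized CPM over all mice and also rose with AICAR in HSALR muscle (log2 0.91, SE 0.29, adjusted p = 0.029).

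Related genes were counted in a list of 10 alpha-arrestins, thioredoxins and the factors above. In HSALR muscle AICAR changed 6 of the 10 (5 higher, 1 lower, median log2 0.28 against -0.02 over all genes, of which 26.6% were called), and in FVB muscle 4 (3 higher, 1 lower, median 0.31 against -0.01, with 13.2% called). Without the 6 libraries with *Krt14* 1 was called in each, against 899 of all genes in HSALR and 697 in FVB muscle, and the count in FVB muscle was 2 without S448 or S449. *Arrdc4*, the alpha-arrestin closest to *Txnip*, rose in both, 2.31-fold in FVB (log2 1.21, SE 0.20, adjusted p = 0.0014) and 2.49-fold in HSALR muscle (log2 1.32, SE 0.16, adjusted p = 4e-05). Its levels were 14.2 to 19.9 in vehicle-treated and 34.8 to 41.3 normalized CPM in AICAR-treated FVB mice, and 10.4 to 13.8 and 22.5 to 44.1 in HSALR mice. *Mlxipl* rose 2.10-fold in HSALR muscle (log2 1.07, SE 0.15, adjusted p = 0.00013), from 40.3 to 61.3 after vehicle to 80.1 to 126 after AICAR, and in FVB mice it was at 58.4 to 66.9 and 69.4 to 110. *Mlxip*, named after its value was seen, rose in HSALR muscle as well (log2 0.79, SE 0.12, adjusted p = 0.00027). *Mlx* was called lower in both genotypes (log2 -0.24 in FVB and -0.18 in HSALR muscle), but not in FVB muscle without S445, S448, S449 or S450, with no filter or with only the groups compared, nor in HSALR muscle without S451, S455, S459 or S463, nor in either without the libraries with *Krt14*. Without those libraries *Mlxipl* (log2 0.71, adjusted p = 0.17) and *Mlxip* (0.52, 0.11) were not called either. *Arrdc1*, another alpha-arrestin, rose with AICAR in HSALR muscle (log2 0.32, SE 0.11, adjusted p = 0.035), a call lost with library size only (0.12), without any one of S453, S454, S455, S458, S459 or S460, and without the 6 libraries with *Krt14* (log2 0.17, adjusted p = 0.67). It was the 1 gene of the list called between the genotypes, 2.04-fold higher in HSALR than in FVB muscle after vehicle (log2 1.02, adjusted p = 4e-05) and 3.04-fold after AICAR (log2 1.61, adjusted p = 1.6e-06), where 26.9% and 21.8% of all genes were called.

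MondoA and ChREBP act at carbohydrate response elements, built from paired E-box sequences that include CACGTG and CACGAG. These motifs were searched on both strands in the 250 bases before a transcript start given by RefSeq (GRCm38.p6), where 7 of the 10 genes had a window. Such a start need not be the outer end of the gene: both windows of *Tbc1d1* lie inside it, and those of *Slc2a12* and *Tbc1d4* reach into it. Among all 32851 windows, 6.02% hold CACGTG and 5.37% hold CACGAG. The first reads the same on both strands, the second reads CTCGTG on the other strand, and the matches shown do not overlap. Both stretches are shown because *Txnip* and *Arrdc4* rose together in HSALR muscle. The *Txnip* window lies at chr3:96557707-96557956 on the plus strand and holds CACGAG 2 times, 5 bases apart, as 0.262% of all windows do at least 2 times. The *Arrdc4* window lies at chr7:68749239-68749488 on the minus strand and holds CACGTG 1 time. Capitals mark the motifs, and each is written 5′ to 3′ on the strand of its gene.
Txnip: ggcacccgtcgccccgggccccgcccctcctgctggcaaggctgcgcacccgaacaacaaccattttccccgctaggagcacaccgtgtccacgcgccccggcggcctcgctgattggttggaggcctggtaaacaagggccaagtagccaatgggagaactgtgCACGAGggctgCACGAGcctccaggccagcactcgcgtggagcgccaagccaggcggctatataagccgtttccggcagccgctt
Arrdc4: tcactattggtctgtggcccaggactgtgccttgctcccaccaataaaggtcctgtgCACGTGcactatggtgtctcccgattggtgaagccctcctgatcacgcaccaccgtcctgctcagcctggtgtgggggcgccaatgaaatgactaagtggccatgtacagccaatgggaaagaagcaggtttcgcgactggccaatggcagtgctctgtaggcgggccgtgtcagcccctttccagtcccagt
Of the other genes with a window, *Irs1* held CACGTG 1 time, and *Slc2a1*, *Slc2a12*, *Hk2*, *Tbc1d1* and *Tbc1d4* held neither motif in theirs.

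*Insr* (chromosome 8, 3150922 to 3279649, minus strand), the insulin receptor gene, was called in none of the 4 comparisons of groups. Its levels were 123, 120.1 and 119 normalized CPM in vehicle-treated FVB mice, 106, 109 and 135 after AICAR, 84.4 to 128 (median 110.5) in vehicle-treated HSALR mice and 104 to 123 (median 119.7) after AICAR. The fitted log2 fold changes lay between -0.17 and 0.10, with adjusted p between 0.28 and 0.95. All 4 groups overlapped.

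*Irs1* (chromosome 1, 82233105 to 82291439, minus strand) encodes the adaptor that links the receptor to phosphatidylinositol 3-kinase, and *Gm9747* shares exon bases with it on the other strand. *Irs1* was at 152, 139, 121, 104 and 81.5 normalized CPM in vehicle-treated HSALR mice and at 59.4, 70.1, 63.6, 102 and 74.8 after AICAR. The groups overlapped in 1 AICAR-treated mouse, S462, and the decrease lay just past the threshold (log2 -0.69, SE 0.24, adjusted p = 0.045). It was lost without the 6 libraries with *Krt14* (log2 -1.04, adjusted p = 0.11) and with any one of S445, S448, S451, S452, S453, S454, S455, S458, S460 or S463 left out, with adjusted p up to 0.11. In FVB mice *Irs1* was at 150.4, 218 and 96.9 after vehicle and 153, 93.4 and 72.3 after AICAR (log2 -0.55, SE 0.31, adjusted p = 0.27).

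Further along insulin signalling, 13 genes from the receptor to AKT were counted. After vehicle 4 differed between HSALR and FVB muscle (1 higher, 3 lower, median log2 -0.06 against 0.01 over all genes), near the 26.9% called of all genes, among them *Irs2* (log2 -1.17, SE 0.40, adjusted p = 0.041), the adaptor that acts beside *Irs1*, and *Rictor* (-0.69, SE 0.13, adjusted p = 0.00082), a subunit of the kinase complex that activates AKT. *Pik3cb*, a catalytic subunit of phosphatidylinositol 3-kinase, was higher (0.61, SE 0.10, adjusted p = 0.00038). The vehicle-treated FVB mice spread widely in *Irs2*, from 21.3 to 57.9 normalized CPM, against 14.2 to 21.4 in HSALR mice. The call of *Irs2* was lost with limma-voom (adjusted p = 0.058) and with any one of S446, S450, S451, S452, S453, S454 or S459 left out, and without S446 its log2 fold change was -0.83 (adjusted p = 0.20). None of the 13 was called after vehicle without the 6 libraries with *Krt14*, where 904 of all genes were called instead of 4169. After AICAR 2 differed, with 21.8% called of all genes, *Pik3cb* higher (0.54) and *Rictor* lower (-0.54). AICAR raised *Akt1* in FVB (0.57, SE 0.06, adjusted p = 7e-05) and HSALR muscle (0.41, SE 0.05, adjusted p = 4.5e-05). *Pik3ca*, another catalytic subunit, was called lower in FVB (-0.42, adjusted p = 0.040) and HSALR muscle (-0.33, adjusted p = 0.023), but the calls were lost with any one of 10 mice (S445, S446, S447, S448, S449, S450, S453, S454, S462 or S463) and of 4 mice (S451, S452, S454 or S455) left out. AICAR changed 2 of the 13 in FVB and 5 in HSALR muscle, where 13.2% and 26.6% of all genes were called. *Mtor* was higher too in HSALR muscle (0.45), but not called without the libraries with *Krt14* (0.35, adjusted p = 0.29). The count after vehicle was 2 to 5 with any 1 mouse left out, 2 without S446 or S450. Over all genes 3399 and 3208 were called in these fits, against 4169 with all mice. The count with AICAR in HSALR muscle was 2 to 6, with 2 without S454 and 3 without S455. Over all genes 3146 and 3427 were called without these mice, against 4121.

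Of 11 genes that restrain insulin signalling, 3 differed between the genotypes after vehicle (1 higher, 2 lower) and 2 after AICAR (both lower), near the 26.9% and 21.8% called of all genes. *Grb10*, an adaptor that inhibits the insulin receptor, was at 78.0 to 114 normalized CPM in vehicle-treated FVB and 32.0 to 46.4 in vehicle-treated HSALR mice (log2 -1.22, SE 0.17, adjusted p = 8.1e-05), and the difference was -1.10 after AICAR (SE 0.17, adjusted p = 3e-04). Without the 6 libraries with *Krt14* 0 of the 11 were called after vehicle, against 904 of all genes, *Grb10* having a log2 fold change of -0.81 with adjusted p = 0.13. *Phlpp1*, an AKT phosphatase, was lower by smaller amounts (-0.34 and -0.24), the second not being called without S449 (adjusted p = 0.11). With AICAR edgeR, DESeq2 and limma-voom called 0 of the 11 in FVB muscle, with 1 at an unadjusted p under 0.05, and edgeR called 2 in HSALR muscle, *Inpp5k* higher (0.29) and *Grb14* lower (-0.38), where 13.2% and 26.6% of all genes were called. The call of *Grb14* was lost with any one of 8 mice left out (S451, S452, S454, S455, S458, S459, S462 or S463, adjusted p 0.054 to 0.082) and without the libraries with *Krt14* (0.15).

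The list of GLUT4 vesicle traffic and fusion held 22 genes, and 11 of them differed between HSALR and FVB muscle after vehicle (6 higher, 5 lower, median log2 -0.09 against 0.01 over all genes) and 9 after AICAR (4 higher, 5 lower), where 26.9% and 21.8% of all genes were called. *Pak1*, a kinase of the actin arm of insulin-stimulated uptake, was at 71.3 to 81.9 normalized CPM in vehicle-treated FVB and 145 to 168 in vehicle-treated HSALR mice (2.05-fold, log2 1.04, SE 0.09, adjusted p = 1.2e-06), and 1.91-fold higher after AICAR. *Sort1*, which encodes sortilin, a sorting receptor of GLUT4 vesicles, was at 116 to 127 against 60.5 to 78.5 (log2 -0.81, SE 0.12, adjusted p = 0.00013). The small GTPases on which TBC1D4 acts went both ways, with *Rab10* lower (-0.39) and *Rab13* higher (0.76). With AICAR 2 of the 22 changed in FVB and 4 in HSALR muscle, where 13.2% and 26.6% of all genes were called. These counts were 1 without S449 in FVB muscle and 2 to 5 with any 1 mouse left out in HSALR muscle, 2 without S459, and they were 0 and 1 without the 6 libraries with *Krt14*. *Myo5a*, a motor of vesicle transport, rose in both, 1.72-fold in FVB (log2 0.78, SE 0.18, adjusted p = 0.0098) and 2.11-fold in HSALR muscle (log2 1.08, SE 0.14, adjusted p = 7.5e-05), and it was also higher in HSALR than in FVB muscle after vehicle (0.65) and after AICAR (0.94). The call of *Myo5a* in FVB muscle was lost without S449 (log2 0.55, adjusted p = 0.056) and with only the groups compared (0.055), and without the 6 libraries with *Krt14* it was kept in none of these comparisons but that of the genotypes after AICAR. *Sort1* and *Rab10* were not called after vehicle without those libraries (adjusted p = 0.091 and 0.14). The count between the genotypes after vehicle was 6 to 12 with any 1 mouse left out, 6 without S445 and 7 without S450. Over all genes 2826 and 3208 were called in these fits, against 4169 with all mice.

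**Figure D5:**
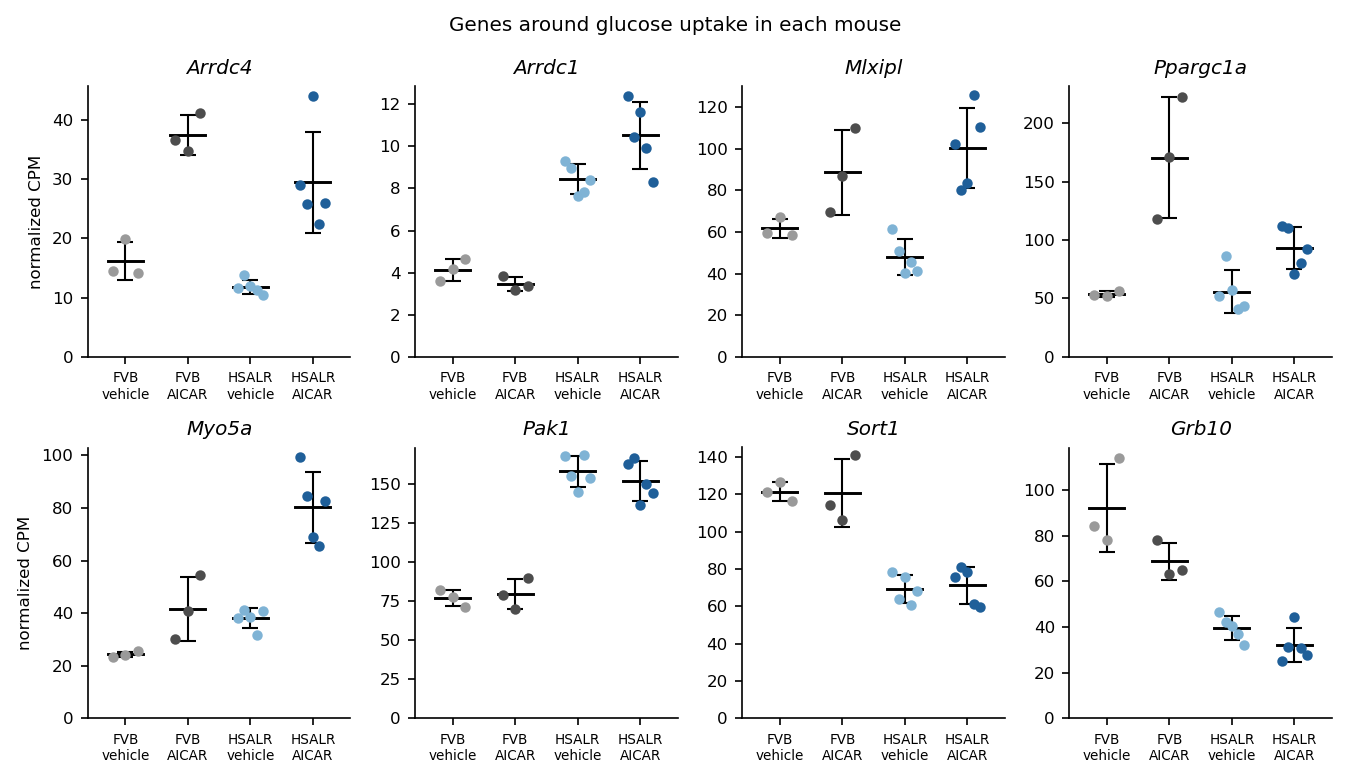
Normalized CPM (y axis, from 0) of 8 genes of the lists in each mouse by group (x axis), with the mean and SD. *Arrdc4*, *Mlxipl*, *Ppargc1a* and *Myo5a* had higher means after AICAR than after vehicle in each genotype, while *Arrdc1*, *Pak1*, *Sort1* and *Grb10* did not overlap between HSALR and FVB mice.

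Factors known to act on the *Slc2a4* gene formed a list of 10. After vehicle edgeR, DESeq2 and limma-voom called 0 of them between the genotypes, with 3 at an unadjusted p under 0.05. EdgeR called 26.9% of all genes there. After AICAR edgeR called 4, 2 higher and 2 lower, where 21.8% of all genes were called. With AICAR 2 rose in FVB muscle and 5 in HSALR muscle, against 8.40% and 13.7% of all genes, and edgeR called none lower. The count in FVB muscle was 1 in 11 of the fits with 1 mouse left out, and without the 6 libraries with *Krt14* it was 1 in each genotype, against 697 of all genes in FVB and 899 in HSALR muscle. *Ppargc1a*, the coactivator of mitochondrial genes, was at 52.4 to 56.7 normalized CPM in vehicle-treated and 118, 171 and 222 in AICAR-treated FVB mice (3.16-fold, log2 1.66, SE 0.27, adjusted p = 0.0011). In HSALR mice it went from 40.6 to 86.0 after vehicle to 71.0 to 112 after AICAR (1.67-fold, log2 0.74, SE 0.20, adjusted p = 0.014), a call lost without the 6 libraries with *Krt14* (0.16). After AICAR it was lower in HSALR than in FVB muscle (log2 -0.87, SE 0.23, adjusted p = 0.013), a call lost without S449 (-0.63, adjusted p = 0.088). *Hdac4*, a class II histone deacetylase that represses *Slc2a4*, rose in HSALR muscle (log2 0.73, SE 0.15, adjusted p = 0.0025) and was higher there than in FVB muscle after AICAR (0.70, SE 0.18, adjusted p = 0.011). The first call was lost without the libraries with *Krt14* (0.11) and the second without S447 (0.069). *Mef2d*, of the MEF2 factors that bind the *Slc2a4* promoter, was also higher after AICAR in HSALR than in FVB muscle (0.25), and *Esrra*, which encodes the nuclear receptor ERR alpha, was lower there (-0.23), but *Mef2d* was not called with any one of S445, S447, S448, S454, S455 or S463 left out, nor *Esrra* with any one of 9 mice left out. With any 1 mouse left out the count between the genotypes after AICAR was 1 to 4, the lowest without S447. Over all genes 2214 were called without S447, against 3379 with all mice. In the test of the difference between the AICAR effects, edgeR, DESeq2 and limma-voom called 0 of the 73 genes of the 6 lists described. In edgeR 9 of them had an unadjusted p under 0.05, and 0.691% of all genes were called.

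Of 10 further hexose transporter genes 7 were tested, and *Slc2a10* was the 1 called. It was lower in HSALR than in FVB muscle after vehicle (log2 -0.42, SE 0.13, adjusted p = 0.029) and fell with AICAR in HSALR muscle (log2 -0.42, SE 0.12, adjusted p = 0.017), at levels of 1.27 to 3.16 normalized CPM, where 26.9% and 26.6% of all genes were called. The call after vehicle was lost with any one of S445, S446, S452 or S453 left out and with only the groups compared, and neither call was kept without the 6 libraries with *Krt14*.

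Across the 16 libraries and 13001 genes with a mean count of at least 50, the genes most like *Slc2a4* by Pearson's r of log2(normalized CPM + 0.5) were *Xrcc1* (0.946), *Tmem259* (0.928), *Pdk2* (0.927), *Wnk2* (0.923) and *Ecsit* (0.913). The genes most like *Hk2* were *Ifi30* (0.970), *Hsdl1* (0.969), *Clptm1* (0.968), *Rsph3b* (0.968) and *Ncdn* (0.967). Between *Slc2a4* and *Hk2* themselves r was 0.826. These values describe libraries that share the groups of the study.

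Each of the 10 genes was also compared between every pair of groups by a two-sided exact permutation test of mean normalized CPM, 60 tests in all. The smallest p these designs allow is 0.10 for 3 against 3 mice, 0.018 for 3 against 5 and 0.0079 for 5 against 5. Between vehicle- and AICAR-treated HSALR mice, *Slc2a4*, *Slc2a1*, *Hk2*, *Tbc1d1* and *Txnip* reached the smallest exact p (0.0079, adjusted p = 0.056 over the 60 permutation tests), and no test was under 0.05 after this adjustment. The share of all genes that reach this exact p was not counted. Between these groups edgeR called 26.6% of all genes.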

How the data were processed

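RNA from powdered gastrocnemius of 16 mice was sequenced as stranded single-end libraries. The authors aligned the reads with STAR (version 2.5.2a) to mm10, and the deposited table holds raw counts per gene, made with QuasR from reads that start in an exon. Whether that counting used the strand is not given in the sources used here, so genes that overlap on opposite strands (*Txnip* with *Gm15441*, *Slc2a12* with *Tbpl1*, *Slc2a1* with *Gm12868*, *Irs1* with *Gm9747*) may share reads. Groups came from the titles. Totals ran from 64890014 to 81987726 counts per library, and the 10 genes had 118 to 129214 counts in a library. Of 24454 genes 24374 were matched to RefSeq (GRCm38.p6), the source of positions and promoters. All 26 pairs of mice within groups differed by more than sampling noise (chi-square per degree of freedom 24.0 to 134.5).

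Counts were fitted in R 4.3.3 with edgeR 4.0.16 (TMM factors, low genes removed with filterByExpr, 1 mean per group over 16 libraries, quasi-likelihood F test, Benjamini-Hochberg adjustment over 15487 genes, threshold 0.05), tested on simulated data first. Alternatives were other scaling factors, DESeq2 1.42.0, limma-voom (limma 3.58.1), other filters, only the groups compared, and each mouse left out. Leaving out the libraries with *Krt14* above 1 normalized CPM was added after the data were seen. The labels do not say that mice were housed or processed separately, so p-values measure the spread between these mice. Beside the 10 genes, up to 2 higher and 2 lower genes per list and comparison are named, those with the largest called change and a mean count of at least 50. The 10 genes, the lists and the tests were chosen with earlier results of these data known. The list of other hexokinases is not reported here.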

Additional observations from a re-analysis of the deposited data

Results flagged for a closer look

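*Slc2a3* in the vehicle-treated HSALR replicate S453 was at 4.54 normalized CPM, while the other 4 mice of the group lay between 1.99 and 2.56. The gap to the nearest mouse was 0.778 of the range of the group, above Dixon's critical value for 5 samples. Such a test was made on 24 groups of 5 values, 1 stood apart, and chance alone would give 1.2. S453 also had the highest sum of epidermal markers, 187 normalized CPM against 0.612 to 65.6 in the other mice of its group, and the part of this in the *Slc2a3* value was not tested. Without S453 the log2 fold change of *Slc2a3* between HSALR and FVB muscle after vehicle was -0.98 in place of -0.73.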

How the results depend on the processing

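Of 1240 values of single genes under the alternatives, 1163 kept their direction and side of the threshold, 36 changed sign, 21 newly passed it and 20 no longer did. The cause was not tested. Over all genes the difference between the AICAR effects was called for 107 with all mice, 70 without S453, 371 without S460 and 536 with DESeq2. With any 1 mouse left out, the number of the 10 genes called after vehicle between the genotypes was 1 to 3. It was 1 without S450, where 3208 of all genes were called against 4169. For the difference between the AICAR effects this number was 0 to 1, with 1 without S453 or S460, and 1 with DESeq2. Without the *Krt14* libraries it was 1 after vehicle and 2 for AICAR in HSALR muscle. No paired analysis was possible because the mice of different groups share no replicate numbers, and among the 10 genes depth limits *Slc2a3* most, with 118 to 430 reads per library.

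List counts without the *Krt14* libraries were, after vehicle, 0 for hexose transporters, insulin signalling and its brakes and 3 for traffic; between the genotypes after AICAR 1 for brakes and 2 for factors of *Slc2a4*; with AICAR in FVB muscle 0 for traffic and 1 for arrestins and factors; and with AICAR in HSALR muscle 0 for transporters, 2 for insulin signalling and 1 for brakes, traffic, arrestins and factors. With only the groups compared they were 0 for transporters, 2 for arrestins and 1 for factors after vehicle, and 1 for traffic, arrestins and factors with AICAR in FVB muscle. DESeq2 called 2 arrestins after vehicle, 1 transporter and 2 arrestins after AICAR and 1 transporter with AICAR in FVB muscle. With AICAR in FVB muscle, 1 transporter was called by limma-voom, with library size only, upper-quartile factors or at least 10 counts in every library, 4 insulin signalling genes and 1 factor with upper-quartile factors, 2 arrestins with library size only, and 1 factor with no filter, which left 2 factors between the genotypes after AICAR. Library size only left 3 factors with AICAR in HSALR muscle.

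With any 1 mouse left out, after vehicle the counts were 0 to 2 for transporters (0 without S445, S446, S452 or S453; 2 without S451 or S463), 2 to 5 for insulin signalling (2 without S446 or S450), 6 to 12 for traffic (6 without S445, 7 without S450), 1 to 3 for arrestins (3 without S460; 2 without S445, S451 or S458) and 0 to 2 for factors (2 without S458; 1 without S446 or S453). After AICAR they were 0 to 1 for transporters (1 without S446 or S460), 1 to 3 for brakes (1 without S449) and arrestins (3 without S460; 2 without S449 or S458) and 1 to 4 for factors (1 without S447; 2 without S445, S448, S449, S454 or S455). With AICAR in FVB muscle they were 0 to 1 for transporters (1 without S450, S452 or S460), 1 to 2 for insulin signalling (1 in 8 fits), traffic (1 without S449) and factors (1 in 11 fits), and 2 to 6 for arrestins (2 without S448 or S449). With AICAR in HSALR muscle they were 1 to 2 for transporters (2 without S450 or S451), 2 to 6 for insulin signalling (2 without S454, 3 without S455), 1 to 4 for brakes (4 without S453 or S460), 2 to 5 for traffic (2 without S459) and 3 to 5 for factors (3 without S459). Over all genes these fits called 2826 (without S445) to 4296 (without S460) after vehicle, against 4169 with all mice. After AICAR they called 2214 (without S447) to 3790 (without S460) between the genotypes, against 3379. With AICAR they called 1143 (without S449) to 2186 (without S460) in FVB muscle, against 2039. In HSALR muscle they called 3146 (without S454) to 4301 (without S449), against 4121.

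Sign changes without the *Krt14* libraries gave log2 fold changes of *Slc2a1* -0.0247, *Slc2a12* 0.0271, *Hk2* -0.23 and *Insr* 0.0699 between the genotypes after vehicle. With AICAR in HSALR muscle they gave *Slc2a3* 0.15 and *Insr* -0.15, and for the difference *Insr* -0.13. With all mice *Slc2a1* was at 0.26 and *Slc2a3* at -0.32 in these comparisons, and neither was called. *Hk2* after vehicle was -0.0082 with RLE factors and DESeq2 and -0.0106 with upper-quartile factors, which gave *Insr* 0.0039 after AICAR. *Tbc1d4* with AICAR in FVB muscle was -0.0511 with library size only, -0.053 with upper-quartile factors, -0.0012 with limma-voom, -0.0027 with at least 10 counts and -0.0061 with only the groups compared. With any 1 mouse left out, *Slc2a12* (-0.12 to 0.0359) and *Hk2* (-0.0535 to 0.0528) changed sign after vehicle, *Insr* (-0.0786 to 0.11) after AICAR, *Tbc1d4* (-0.0756 to 0.0865) and *Insr* (-0.17 to 0.013) with AICAR in FVB muscle, and *Tbc1d1* (-0.45 to 0.054) and *Irs1* (-0.47 to 0.21) for the difference.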

Other observations

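In the AICAR-treated HSALR group, replicate S460 had the lowest level of *Slc2a4*, *Slc2a12*, *Hk2*, *Tbc1d1* and *Txnip* and the highest of *Tbc1d4*, with 642 normalized CPM of *Hk2* against 811 to 988 in the other 4 mice. Its epidermal marker sum was 0.242. In the AICAR-treated FVB group, replicate S449 had the highest level of *Slc2a4*, *Hk2*, *Tbc1d1*, *Tbc1d4*, *Txnip* and *Insr* and the lowest of *Slc2a1*, *Slc2a3* and *Irs1*, with 1406 normalized CPM of *Hk2* against 901 and 917 in the other mice. Without S449 the increase of *Hk2* with AICAR in FVB muscle was 1.36 on the log2 scale.

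*Slc2a4* per kb was 42.4 ± 6.44 (SD, n = 3) times *Slc2a1* in vehicle-treated FVB mice, 55.8 ± 16.6 (n = 3) after AICAR, 34.1 ± 4.51 (n = 5) in vehicle-treated HSALR mice and 67.3 ± 14.1 (n = 5) after AICAR. The HSALR groups did not overlap (28.0 to 39.6 and 50.7 to 83.7), and the FVB groups did (35.5 to 48.2 and 42.2 to 74.3). This ratio was chosen with the values in view and is given as a description.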
